A study of Mus musculus with 2 samples.

Results

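The genes described here build the extracellular matrix between cells of the developing ureter. They comprise 37 genes for matrix proteoglycans, elastic fibre proteins and matricellular glycoproteins. They were chosen by name, with earlier results of these data known. Each was represented by its brightest probe with signal well above background. All 37 had probes, 54 in all, and 35 genes entered the test among 20923 genes. Dpt and Prelp were too dim to be tested. The data were 2 two-colour microarrays of ureters dissected from NMRI mouse embryos at E13.5, each array carrying one mutant and one control RNA. Mutant ureters carried Pax2-cre/+ together with Fgfr1(fl/?) and Fgfr2(fl/fl), where fl is a floxed allele that Cre can delete. Control ureters carried Fgfr1(fl/?) and Fgfr2(fl/?) and had no Cre. The question mark stands for an allele that was either wild type or floxed, so some mutant ureters could lose Fgfr1 as well as Fgfr2. Ureters were pooled, and how many embryos a pool held is not stated in the labels. Array 1 held female pools with the mutant in Cy5, and array 2 held male pools with the mutant in Cy3. Sex, dye orientation and array therefore cannot be told apart. The p-values below measure only the spread between these arrays, and limma, the test used, pools that spread largely over all genes. A gene's own arrays gave 1 degree of freedom, against 6.32 from all genes.

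The extracellular matrix is a fibre network secreted mostly by mesenchymal cells. Elastic fibres have a core of elastin on a scaffold of fibrillin microfibrils, and fibulins, emilins and microfibril-associated proteins join the parts together. Lysyl oxidases crosslink elastin and collagen, small leucine-rich proteoglycans set the width and spacing of collagen fibrils, and matricellular proteins tune how cells attach and signal. In the embryonic ureter an epithelial tube is wrapped in mesenchyme that forms smooth muscle and a fibrous outer layer. Fgfr2 is a receptor for fibroblast growth factors. Pax2 is a transcription factor gene of the nephric duct and its derivatives, among them the ureteric epithelium, and the labels do not state which cells recombined.

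Ratios compare mutant with control on the log2 scale. Pairs of values list array 1 first, and means carry the SD of the 2 arrays. A log2 ratio of 0.58 is a 1.5-fold difference. Levels are normalised log2 signals of a channel and are compared only within one probe. Where channels are compared across the arrays, sex and dye differ as well. The share of all genes whose mutant and control channels separate in this way was not counted, so such separation is description only. All 10 markers of ureteric epithelium and all 8 of ureteric mesenchyme passed the background filter, as did complete lists for several other cell types, so the filter alone does not identify the tissue. The probes of the targeted Fgfr2 had ratios of 0.27 and 0.06, and 0.08 and 0.09. Those of Fgfr1 were at 0.026 and 0.51 (mean 0.27), 0.17 and -0.16 (mean 0.0018), and 0.27 and -0.44 (mean -0.084). The labels do not state which exons the deletion removes, so these probes may lie outside them.

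No matrix gene passed the test across all genes, and those with ratios above 0 on both arrays came from every role, among them 4 of 6 small leucine-rich proteoglycans, 5 of 8 genes for elastin, fibrillins and their partners, 2 of 3 lysyl oxidases and 3 of 10 matricellular genes. In limma with Benjamini-Hochberg adjustment, 0 of 35 members had an adjusted p under 0.05, against 0.0287% of all genes, and the lowest adjusted p among members was 1.0. At an unadjusted p under 0.05 there were 5 members higher in the mutant, namely Emilin1, Aspn, Matn2, Lox and Spon1, which is 14.3% against 2.61% of all genes. That count depended on the processing. In either direction it was 1 of 35 with median centring in place of loess, against 4.08% of all genes. With Agilent's processed signals it was 2 of 35, against 4.88%. It was 3 of 35 with the mean over all kept probes, against 3.87%, and 8 of 37 with no filter on dim probes, against 3.59%. No member had such a p in each of the 9 settings with both arrays, Emilin1 and Aspn having it in 8, Matn2 in 7, Lox in 6 and Spon1 in 4. There were 0 members lower at that level, against 1.43% of all genes. Above 0 on both arrays were 18 members (51.4%), against 22.1% of all genes. Below 0 on both were 4 members (11.4%), against 21.4%. The other 13 had opposite signs. Among the 18 were the dim genes Acan, at 0.0047 and 0.0087, and Tnc. Because the list was chosen with earlier results of these data known, these shares describe it and are no test of it. The member median was 0.11 (0.11 on array 1 and 0.027 on array 2), and that of all genes was 0.0044. With median centring in place of loess, a curve fitted along signal strength, both ratios were above 0 for 11 of 35 members and below 0 for 10. The shares of all genes were then 15.5% and 38.1%. The member median was -0.020, and the medians of all genes were -0.059 on array 1 and -0.078 on array 2. Since the tissue was measured in bulk, fewer cells of a type and less RNA per cell cannot be told apart.

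**Figure D1:**
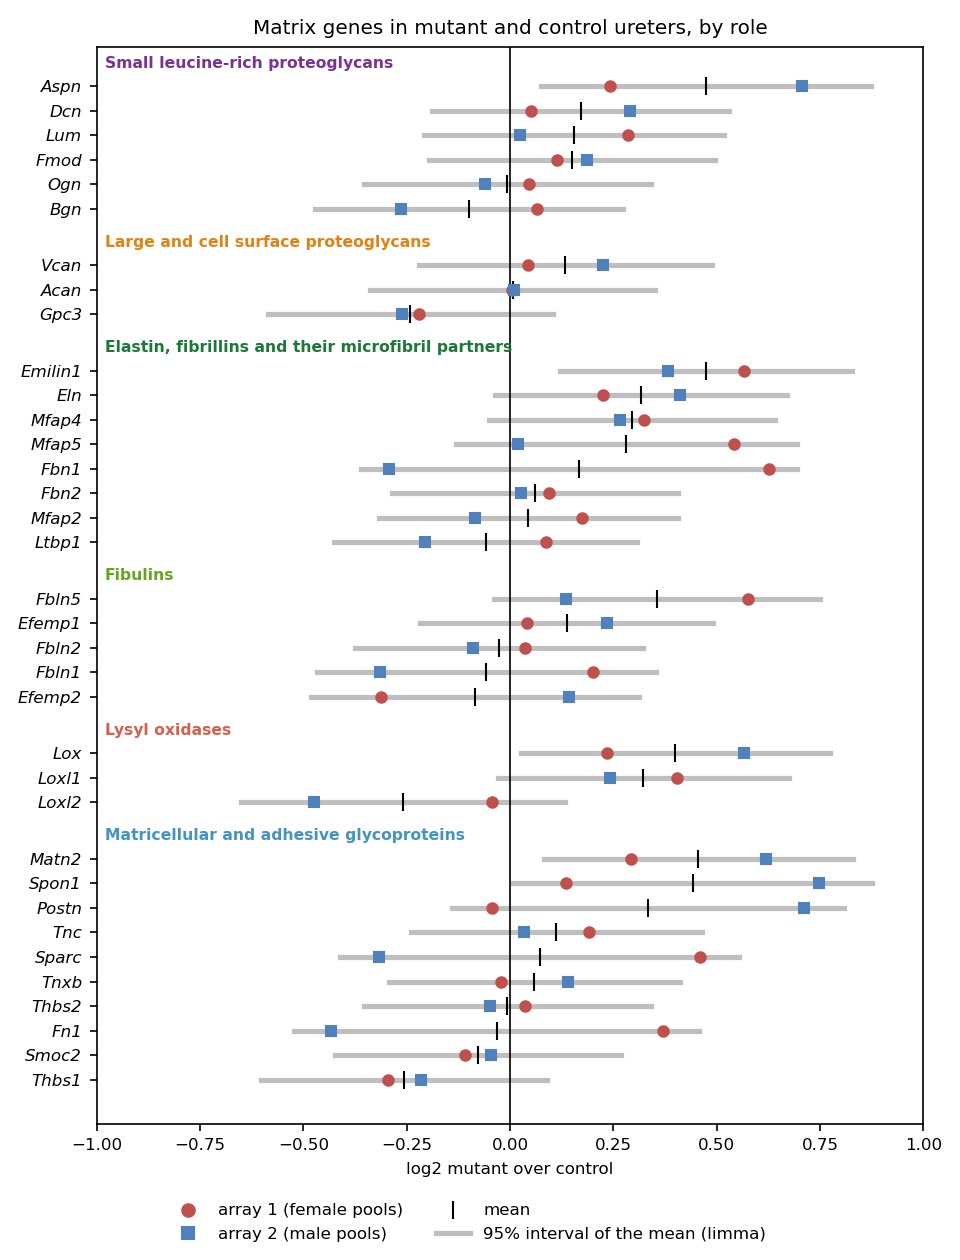
Log2 mutant over control (x axis) of the 35 tested matrix genes, grouped by role; circles are array 1, squares array 2, black ticks the mean, and grey bars the 95% interval of the mean in limma. The intervals of Emilin1, Aspn, Matn2, Lox and Spon1 lie above 0 before adjustment, and those of the other 30 genes include 0.

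All differences were small. With the reported processing, mean ratios ran from -0.26 for Loxl2 to 0.47 for Aspn, a 1.39-fold difference at most. Over the 9 settings with both arrays, they reached -0.42 for Loxl2 and 0.59 for Aspn. The 95% interval of a member's mean reached at least 0.34 and up to 0.53 log2 units to each side, with a median of 0.36. These intervals are not adjusted for the number of genes, and differences well beyond them could still miss the adjusted threshold. Among the marker genes Upk3a, of the urothelium, had a mean of 1.34 and an adjusted p of 0.0708 in limma. At least 1.5-fold on 1 array or more were 5 members (14.3%), Aspn, Matn2, Spon1, Postn and Fbn1, against 8.3% of all genes. On both arrays in the upward direction there were 0, against 0.296%.

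The probes of some members toward either end of the range of mean ratios are shown so that what was measured can be identified. Lox, Fbln5 and Postn had higher means than Eln and Loxl1 but are not listed here. They are 60 bases long, and their first 30 bases are given 5′ to 3′, as the array files list them, with mm9 positions from the array design. For Emilin1 the design interval is 457 bases, longer than the probe.
Emilin1, chr5:31222545-31223001, plus strand: gacagagtcttgctcaatgatggaggctac
Aspn, chr13:49662479-49662538, plus strand: ctcaactcataataaagcttcaagtattca
Matn2, chr15:34365734-34365793, plus strand: gggggaaggaatcctgaattctgagtttac
Spon1, chr7:121184084-121184143, plus strand: ggctactttatttgtgagccatgatttccg
Eln, chr5:135179129-135179188, minus strand: ataccggaagccttgacgatggatttggtg
Loxl1, chr9:58138570-58138629, minus strand: aacgtggtgagatgcaacatccactacaca
Loxl2, chr14:70090017-70090076, plus strand: tgacattgactgccagtggatagacatcac
Thbs1, chr2:117952585-117952644, plus strand: gcctgtagagttagtatttctggtttttat
Gpc3, chrX:49625740-49625799, minus strand: aaatggtatctttatgaggatggtaaattt

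Of the 8 genes for elastin, fibrillins and their microfibril partners, 5 were above 0 on both arrays, 0 were below, and 3 had opposite signs, with a median of 0.22. Emilin1 encodes a glycoprotein at the boundary of elastin and microfibrils. Its level was 9.20 in the control and 9.77 in the mutant channel of array 1, and 9.84 and 10.22 on array 2. The mutant was higher on each array, but the mutant level of array 1 lay below the control level of array 2, so the channels overlap across arrays. The ratio was 0.47 ± 0.13 (95% interval 0.12 to 0.83, unadjusted p = 0.0155 in limma). Eln encodes elastin itself. Its level went from 7.71 in control to 7.94 in mutant on array 1 and from 7.98 to 8.39 on array 2, so the channels again overlap across arrays. That is a ratio of 0.32 ± 0.13, with a 95% interval of -0.036 to 0.67.

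Microfibril-associated proteins bind fibrillin, and their ratios were less even. Mfap4 had the closest agreement between arrays among these genes, at 0.32 and 0.27, with levels of 15.00 and 15.32 on array 1 and of 15.01 and 15.27 on array 2 in control and mutant. Both mutant channels lay above both control channels for this gene. The ratios of Mfap5 were 0.54 and 0.020, and those of Mfap2 were 0.17 and -0.085. The fibrillins form the microfibril backbone. Fbn2, the fibrillin most linked to embryonic tissue, was at 0.095 and 0.027, and Fbn1 was at 0.63 and -0.29. Ltbp1 tethers latent TGF-beta to fibrillin and was at 0.088 and -0.21.

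Fibulins connect elastin, microfibrils and basement membranes. Of the 5 genes, 2 were above 0 on both arrays and 3 had opposite signs, with a median of -0.027. Fbln5 guides elastin and Loxl1 onto microfibrils. Its level was 12.95 in control and 13.52 in mutant on array 1, and 13.11 and 13.25 on array 2, so both mutant channels were above both control channels. The ratio was 0.36 ± 0.31 (95% interval -0.038 to 0.75), and most of it came from array 1. Efemp1, which encodes fibulin-3, was at 0.041 and 0.23. Efemp2 encodes fibulin-4, which elastic fibre assembly requires, and was at -0.31 and 0.14. The basement membrane fibulins Fbln1 and Fbln2 were at 0.20 and -0.31, and at 0.037 and -0.091.

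Among the lysyl oxidases, which form the crosslinks of elastin and collagen, Lox and Loxl1 lay on the other side of 0 from Loxl2. Lox had levels of 8.28 and 8.52 in control and mutant on array 1 and of 8.26 and 8.83 on array 2. Both mutant channels were higher than both control channels, and the ratio was 0.40 ± 0.24 (95% interval 0.026 to 0.77, unadjusted p = 0.0390 in limma). Loxl1, an oxidase with a known part in elastic fibre upkeep, had levels of 10.94 and 11.34 on array 1 and of 11.01 and 11.25 on array 2. Its mutant channels were again above its control channels, at a ratio of 0.32 ± 0.12 (95% interval -0.029 to 0.67). Loxl2, which also acts on basement membrane collagen, had levels of 13.21 and 13.17 on array 1 and of 13.39 and 12.92 on array 2. Both mutant channels lay below both control channels. The ratio was -0.26 ± 0.31 (95% interval -0.65 to 0.13), and the lower value came from array 2.

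**Figure D2:**
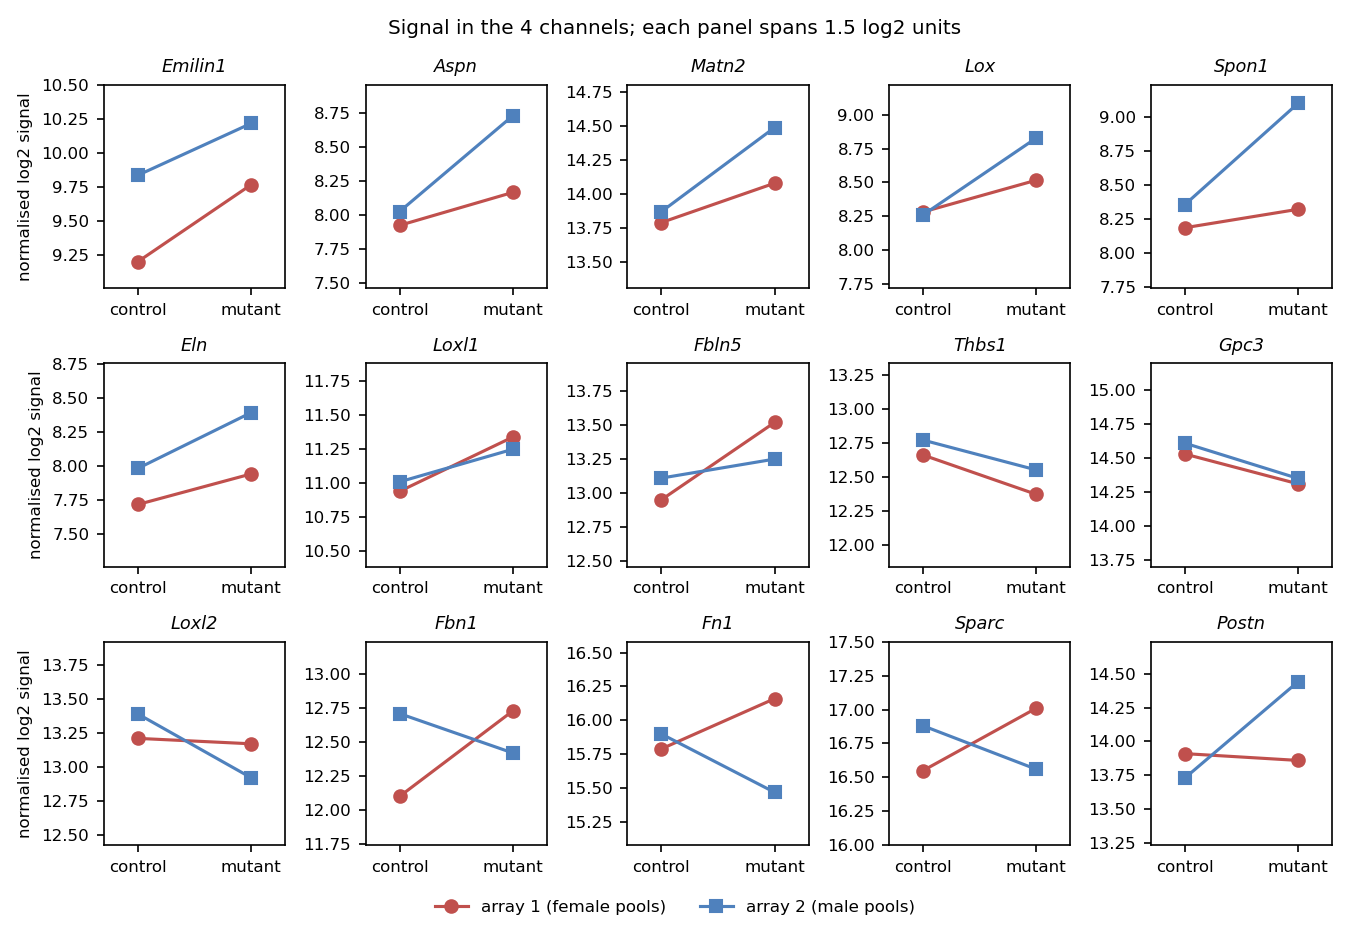
Normalised log2 signal (y axis) of 15 matrix genes in the control and the mutant channel of array 1 (circles) and array 2 (squares); each panel spans 1.5 log2 units around its own mean. Lines rise from control to mutant on both arrays for Emilin1, Aspn, Matn2, Lox, Spon1, Eln, Loxl1 and Fbln5, descend on both for Thbs1, Gpc3 and Loxl2, and cross in opposite directions for Fbn1, Fn1, Sparc and Postn.

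Small leucine-rich proteoglycans coat collagen fibrils. Of 6 measured, 4 were above 0 on both arrays, 0 were below, and 2 had opposite signs, with a median of 0.15. Aspn encodes asporin, which binds collagen and TGF-beta. Its level was 7.92 in control and 8.17 in mutant on array 1, and 8.02 and 8.73 on array 2. Both mutant channels exceeded both control channels, with the wider gap on array 2. The ratio was 0.47 ± 0.33 (95% interval 0.076 to 0.87, unadjusted p = 0.0258 in limma). Dcn and Lum, decorin and lumican, were at 0.051 and 0.29, and at 0.28 and 0.024, and Fmod, fibromodulin, was at 0.11 and 0.19. Ogn, osteoglycin, was at 0.047 and -0.059. Bgn, biglycan, was at 0.065 and -0.26. Prelp, a proteoglycan that anchors matrix to basement membranes, was well above background at a share of 0 of its mutant and 0.25 of its control spots on array 1, and at 1.0 and 0.5 on array 2, so no ratio is given.

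Of 3 larger and cell surface proteoglycans, 2 were above 0 on both arrays and 1 was below, with a median of 0.0067. Gpc3 encodes a heparan sulphate proteoglycan anchored at the cell surface, known as an inhibitor of hedgehog signalling. Its level was 14.53 in control and 14.31 in mutant on array 1, and 14.61 and 14.35 on array 2. Both mutant channels lay below both control channels, at a ratio of -0.24 ± 0.028 (95% interval -0.59 to 0.10). Vcan encodes versican, the hyaluronan-binding proteoglycan of embryonic mesenchyme, and was at 0.043 and 0.23. Acan, the proteoglycan of cartilage, was dim in all channels (6.81 to 6.86) and had ratios of 0.0047 and 0.0087.

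Of 10 measured matricellular and adhesive glycoproteins, 3 were above 0 on both arrays, 2 were below, and 5 had opposite signs, with a median of 0.065. Matn2, a matrilin that links matrix filaments, had levels of 13.79 and 14.08 in control and mutant on array 1 and of 13.87 and 14.49 on array 2. Both mutant channels were above both control channels, at a ratio of 0.46 ± 0.23 (95% interval 0.083 to 0.83, unadjusted p = 0.0229 in limma). Spon1 encodes F-spondin, a secreted adhesion protein of the nervous system and other tissues. Its levels were 8.19 and 8.32 on array 1 and 8.36 and 9.10 on array 2, so the mutant level of array 1 was below the control level of array 2. The ratio was 0.44 ± 0.43 (95% interval 0.0071 to 0.88, unadjusted p = 0.0472 in limma).

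Thbs1, a thrombospondin that can activate latent TGF-beta, was lower on both arrays. Its level was 12.66 in control and 12.37 in mutant on array 1, and 12.77 and 12.55 on array 2. Both mutant channels were below both control channels, and the ratio was -0.26 ± 0.056 (95% interval -0.60 to 0.091). Smoc2, a relative of Sparc, was at -0.11 and -0.047. The related thrombospondin Thbs2 was at 0.035 and -0.048. Tnc, tenascin C, was dim in all channels (6.74 to 6.98) and was at 0.19 and 0.034. Its second kept probe had opposite signs, at 0.36 and -0.23. Tnxb, tenascin X, was at -0.023 and 0.14. Dpt encodes dermatopontin, a small collagen-binding protein, and was well above background at a share of 0 of its mutant and 0.5 of its control spots on array 1, and at 1.0 and 0.75 on array 2.

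Fibronectin, SPARC, fibrillin-1 and periostin showed the widest gaps between arrays. Fn1, the adhesive scaffold of early matrix, had control and mutant levels of 15.79 and 16.16 on array 1 and of 15.90 and 15.47 on array 2. Sparc, a collagen-binding matricellular protein, had 16.55 and 17.01 on array 1 and 16.88 and 16.56 on array 2. Control and mutant levels of Fbn1 were 12.10 and 12.73, then 12.71 and 12.42. These genes were higher in the mutant on array 1 and lower on array 2. Postn, periostin, ran the other way, from 13.91 to 13.86 on array 1 and from 13.73 to 14.44 on array 2. The ratios of array 1 exceeded those of array 2 by 0.80 for Fn1, 0.78 for Sparc and 0.92 for Fbn1, and the difference was -0.75 for Postn. These gaps were not tested, since each sex and dye orientation has 1 array. Among all genes, 11.8% had ratios at least 1.5-fold apart, as had 5 members (14.3%), the above 4 and Spon1. Above 0 on array 1 and below 0 on array 2 were 10 members, which at 28.6% was near the 27.8% of all genes.

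**Figure D3:**
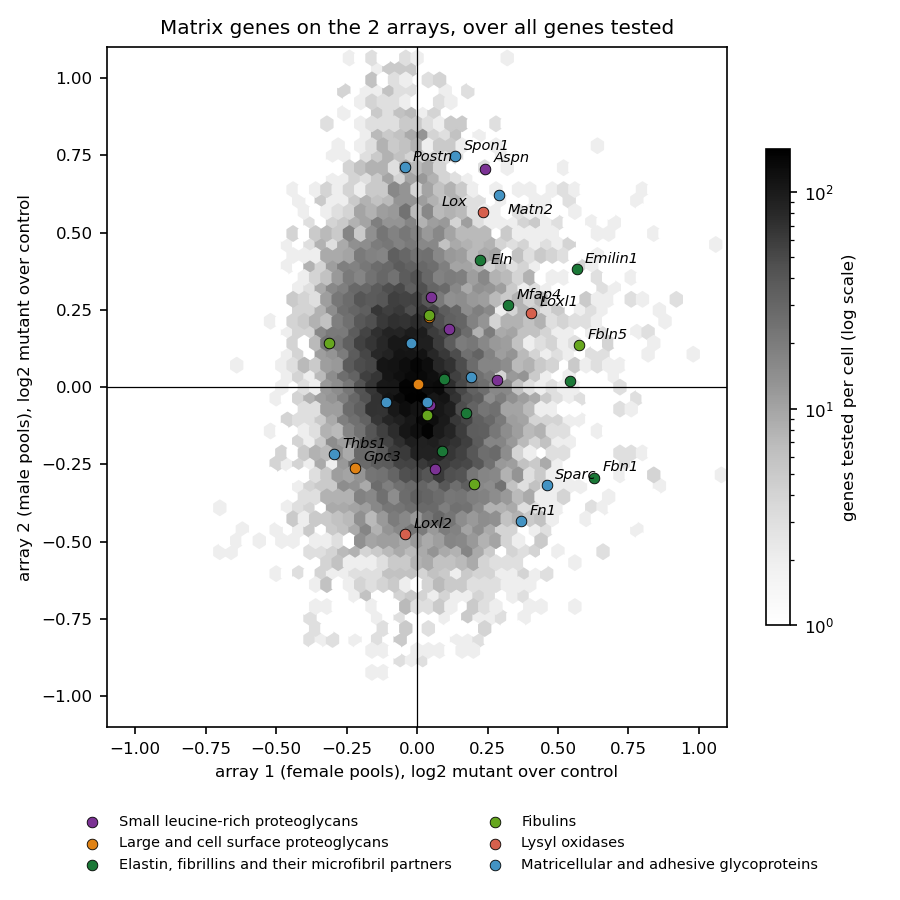
Log2 mutant over control on array 1 (x axis) against array 2 (y axis); grey cells count all genes tested on a log scale, and coloured points are the 35 matrix genes by role. Of the matrix genes, 18 lie at the upper right, 4 at the lower left, and 13 in the remaining corners, with Fn1, Sparc and Fbn1 at the lower right.

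For 13 members more than 1 probe was kept, and the probes bear on how far a single value can be read. Gpc3 and Spon1 had every value of both probes on one side of 0. The second Gpc3 probe, on chromosome X from 49740892 to 49740951, gave -0.16 and -0.50, and the design assigns it to a cDNA clone rather than to the reference transcript. That probe was dim, at levels of 6.59 to 7.46 over the channels. The second Spon1 probe gave 0.011 and 0.16, closer to 0 than the first, and was dim in all channels (6.76 to 6.92). Loxl1 had 0.53 and -0.010 at its dimmer probe, and Lox had 0.19 and -0.018 at its own, so the value above 0 on array 2 rested on the brighter probe for both. The dimmer Fbln5 probe was at -0.013 and 0.050, but its signal was low in all channels (6.53 to 6.65). On array 2 a share of 0.5 of its control spots was well above background. The probes of Loxl2 had means of -0.26, -0.25 and -0.056. For Fbln1, Ltbp1, Sparc and Vcan the probe means lay on both sides of 0.

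The 3 probes of Vcan differed most, with means of 0.13, -0.17 and -0.26 and a span of 0.39. The brightest lies at chr13:89795080-89795139 and had ratios of 0.043 and 0.23. The second, at chr13:89851810-89851869, had -0.13 and -0.22. The dimmest, at chr13:89850072-89850131, had 0.15 and -0.67. Versican is made as several splice forms that differ in the region carrying glycosaminoglycan chains. The design assigns the brightest probe to one transcript variant and the others to another. The probes were not placed in exons, and whether splice forms bear on these ratios was not tested. Their first 30 bases are shown because the gene's ratio depends on which is read.
Vcan, brightest probe: ttcatcctaatgtgtactagagcacagaaa
Vcan, second probe: ttgagaaccagacatgcttccctctccctg
Vcan, dimmest probe: cggcaggctttaggttgtctatgtaaatga

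**Figure D4:**
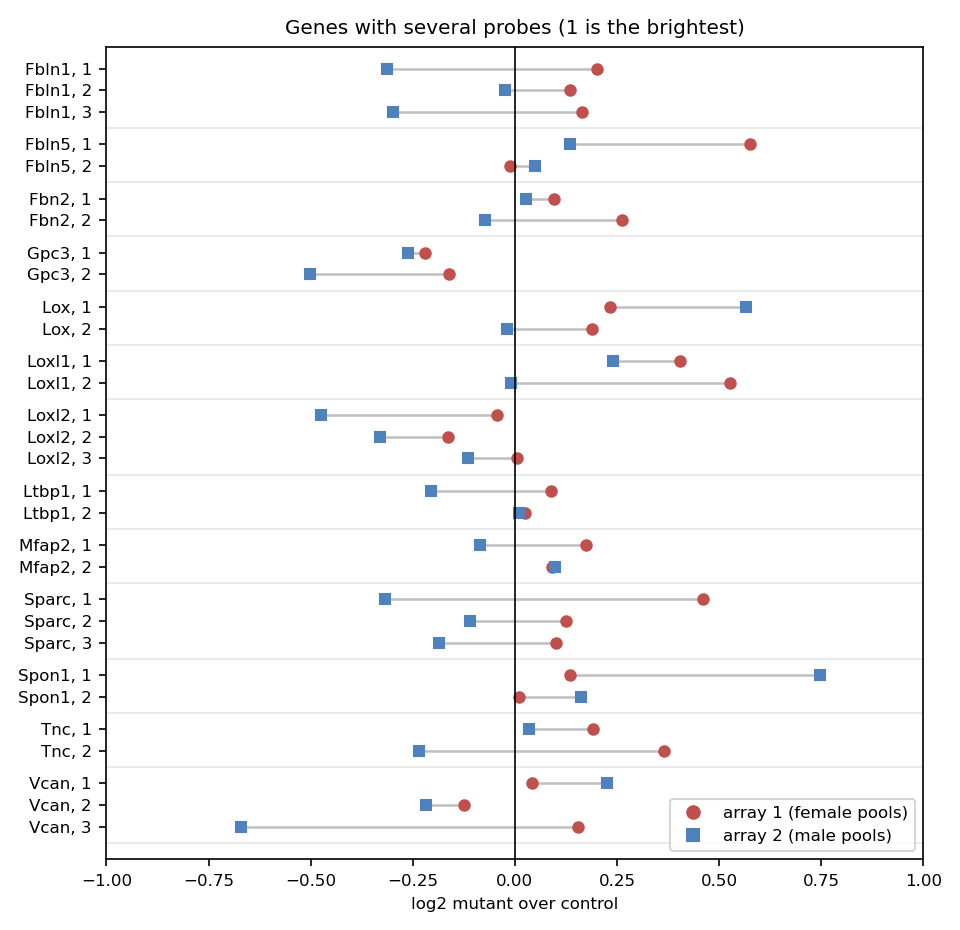
Log2 mutant over control (x axis) of each kept probe of the 13 matrix genes with several probes, numbered from the brightest; circles are array 1 and squares array 2, joined by a line. All values lie on one side of 0 for Gpc3 and Spon1, whose second probes were dim, and the 3 Vcan probes lie on both sides.

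Promoters were read for members in the RefSeq table of GRCm38.p6, which held 31 start sites of 23 members. In the 250 bases before each start, both strands were searched, at any distance from the start. The motifs were TATAAA (the sequence of the TATA box), GGGCGG (a GC box), TGACTCA (an AP-1 motif), CATTCC (a TEAD motif) and the CArG box of serum response factor. The CArG box can overlap TATAAA in its middle. GGGCGG was in 15 of 31 windows against 32.7% of all promoters, and TATAAA in 6 against 12.4%. CATTCC was in 3 against 12.6%, TGACTCA in 1 against 4.46%, and the CArG box in 0 against 1.47%. Windows of 1 gene can overlap. Of the members above 0 on both arrays, 3 are shown, and capitals mark the motifs found. Aspn holds TATAAA at 2 places, one on each strand, the Fbln5 start shown holds GGGCGG at 2 places on the opposite strand while its second start, at chr12:101818485-101818734, holds none of the motifs, and Emilin1 holds none of the motifs.
Emilin1, chr5:30913536-30913785, plus strand: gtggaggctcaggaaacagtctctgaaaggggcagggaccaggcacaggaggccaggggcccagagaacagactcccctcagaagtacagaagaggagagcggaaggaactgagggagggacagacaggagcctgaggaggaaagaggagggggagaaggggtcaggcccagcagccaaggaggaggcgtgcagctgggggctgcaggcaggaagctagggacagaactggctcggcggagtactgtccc
Aspn, chr13:49544193-49544442, plus strand: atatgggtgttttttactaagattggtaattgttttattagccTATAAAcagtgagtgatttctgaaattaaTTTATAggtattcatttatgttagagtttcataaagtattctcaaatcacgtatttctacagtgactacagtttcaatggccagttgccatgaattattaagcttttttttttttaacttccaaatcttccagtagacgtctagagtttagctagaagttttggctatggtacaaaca
Fbln5, chr12:101819120-101819369, minus strand: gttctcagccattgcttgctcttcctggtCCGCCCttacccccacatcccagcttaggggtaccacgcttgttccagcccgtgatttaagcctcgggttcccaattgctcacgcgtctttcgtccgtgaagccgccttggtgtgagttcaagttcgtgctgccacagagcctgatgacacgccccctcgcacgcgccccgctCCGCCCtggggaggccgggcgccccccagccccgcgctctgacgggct

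Other genes of the same families were read for comparison. Of 60 related genes that are not members, 51 were measured. Above 0 on both arrays were 17 of these 51, a larger share than the 22.1% of all genes. Below 0 were 7 of 51, a smaller share than the 21.4% of all genes. The other 27 had opposite signs. As for the members, these shares are no test. The median of the related genes was 0.0020. None was called in limma, against 0.0287% of all genes. At an unadjusted p under 0.05, 1 gene was higher and 1 lower, against 2.61% and 1.43% of all genes. Matn4, another matrilin, was highest, at 1.04 and 0.46 (unadjusted p = 0.00403 in limma, adjusted p = 0.745). Sdc1, a syndecan of epithelia and plasma cells, followed at 0.76 and 0.073. Lowest were Ccn1, a matricellular protein induced by growth factors, at -0.45 and -0.41 (unadjusted p = 0.0209 in limma), and Podn, podocan, at -0.20 and -0.53. The 12 other elastic fibre and microfibril genes had 3 above and 1 below 0 on both arrays and 8 with opposite signs, with a median of 0.00040.

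Marker lists of the tissue and of other cells were read on the same arrays. Leukocyte markers were above 0 on both arrays for 10 of 11 genes (median 0.72), erythroid for 8 of 9 (0.85), skeletal muscle for 6 of 6 measured (0.78), neuronal and glial for 7 of 7 (0.30) and liver for 5 of 5 (1.03). Their summed log2 level was 13.41 to 13.44 in control and 14.22 to 14.30 in mutant for leukocytes, and 10.61 to 11.00 and 11.50 to 11.67 for skeletal muscle. Myf5 and Ckm of the muscle list were not well above background. Ureteric mesenchyme markers were below 0 on both arrays for 7 of 8 genes (median -0.34). Of all genes, 22.1% were above and 21.4% below 0 on both arrays. Epithelial markers had a median of -0.13, with 3 of 10 above and 5 below 0 on both arrays. Their means ran from -0.54 for Shh to 1.34 for Upk3a. Medians were 0.17 for smooth muscle markers, 0.17 for endothelial, -0.060 for nephron, 0.21 for gonad and adrenal, and 0.098 for mesothelium. Amh of the gonad list was not well above background, nor were Upk3b and Lrrn4 of mesothelium, which left 2 of 4 genes there. General fibroblast markers, whose cells make much of this matrix, had a median of -0.048. Of 6, 2 were above 0 on both arrays, 1 was below and 3 had opposite signs. Pdgfra was at 0.24 and 0.38, Foxd1 at 0.22 and 0.027, and Col3a1 at -0.21 and -0.029. Col1a1 was at 0.053 and -0.53, Col1a2 at 0.34 and -0.76, and Pdgfrb at 0.092 and -0.047. The summed log2 level of the list was 17.76 in control and 17.90 in mutant on array 1. On array 2 it was 17.96 and 17.61, the same order as Fn1, Sparc and Fbn1. Col1a2 was the brightest gene in that sum, and Col3a1, Pdgfra and Foxd1 did not follow its order. Cartilage markers had a median of -0.11, and Comp, Matn1 and Matn3 were not well above background. The part of these cells in the matrix values was not tested.

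Median centring moved the most members, and other settings moved some by over 1.5 times. Tnc went from 0.11 to 0.31 with Agilent's processed signals and to 0.30 in the authors' deposited table. With the mean over all kept probes, which for Fbln5 takes in its dim second probe, Fbln5 was at 0.19 and Vcan at -0.098. Above 0 on both arrays in each of 9 settings with both arrays were 8 members, namely Aspn, Emilin1, Matn2, Spon1, Lox, Loxl1, Eln and Fmod. Below 0 in each were 4, namely Loxl2, Thbs1, Gpc3 and Smoc2. The mean ratio of Emilin1 ran from 0.37 to 0.52 across these settings, that of Aspn from 0.44 to 0.59 and that of Eln from 0.29 to 0.41. Spon1 ran from 0.26 to 0.53 and Lox from 0.24 to 0.47, in each case lowest with the mean of both probes. The second probe of Spon1 was dim. Median centring in place of loess changed 32 of 35 members downward, with a largest shift of -0.19, and put the means of Dcn, Lum, Efemp1, Vcan, Fbn2, Mfap2 and Sparc below 0.

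**Figure D5:**
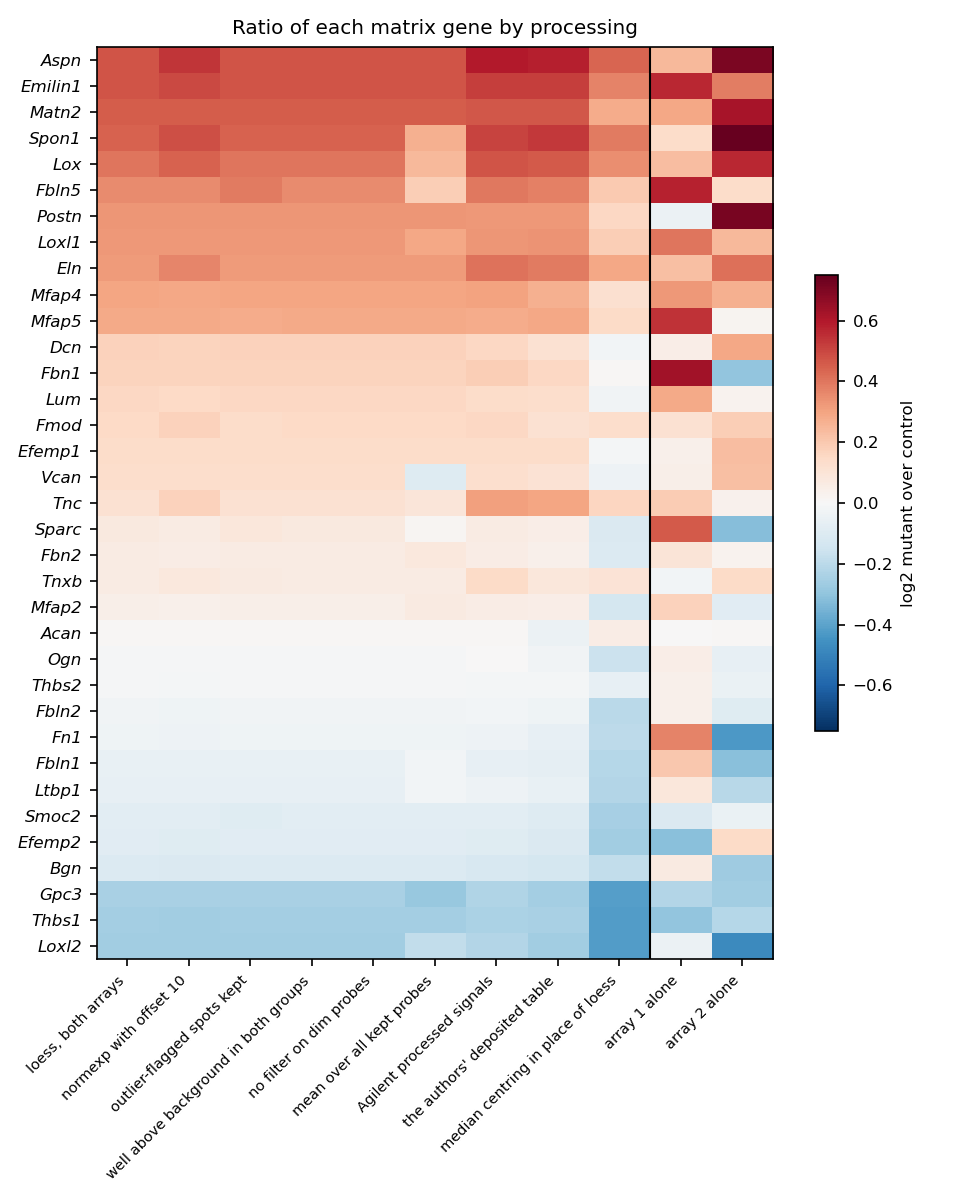
Mean log2 mutant over control (colour) of each of 35 matrix genes (rows) under 9 processing settings with both arrays, and on each array alone to the right of the black line. The rows from Aspn to Eln keep one colour in the first 9 columns, and the median centring column is bluer in most rows.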

How the data were processed

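RNA of ureter pools was hybridised to 2 Agilent two-colour arrays with exchanged dyes. Deposited spot intensity came from Agilent Feature Extraction 10.7.3.1, per the file headers, with probe positions on mm9. The authors' deposited table holds a score per probe, a signed linear fold, used as an alternative. Outlier-flagged spots (3.35% and 3.05%) and control spots were left out, and no spot was saturated. Background was corrected by normexp (offset 50) and dyes by loess (span 0.3), and 4 spots per probe were averaged. Of 39429 probes, 27493 were kept, being well above background in over 0.5 of spots on both arrays in one group. RefSeq names (GRCm38.p6) matched 28328 probes, and otherwise the file's name stood. Each gene's brightest kept probe was tested with limma 3.58.1 (R 4.3.3), mutant over control, with Benjamini-Hochberg adjustment over 20923 genes. The fit was tested on simulated data. Across genes the arrays' ratios had a Pearson r of -0.024. All members were described, and of related genes the 2 highest and 2 lowest were named. Members, lists and markers were chosen with earlier results of these data known. Alternatives were median centring, another offset, Agilent's processed signals, the probe mean, other filters and each array alone.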

Additional observations from a re-analysis of the deposited data

Results flagged for a closer look

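For 4 matrix genes the ratio lay on opposite sides of 0 in the female and the male array and the arrays were at least 1.5-fold apart. The ratio of array 1 minus that of array 2 was 0.92 for Fbn1, 0.80 for Fn1, 0.78 for Sparc and -0.75 for Postn. The difference was not tested, because each sex had 1 array and the dyes were exchanged with it.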

How the results depend on the processing

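No member was called in limma in any setting, and the lowest adjusted p was 0.86. With median centring in place of loess, 11 members were above and 10 below 0 on both arrays, and the medians were -0.020 for members and -0.031 for related genes. The means of Dcn (-0.020), Lum (-0.024), Mfap2 (-0.13), Vcan (-0.039), Fbn2 (-0.10), Sparc (-0.11) and Efemp1 (-0.013) then turned below 0. All genes also moved, to 15.5% above and 38.1% below 0 on both arrays. With Agilent's processed signals Ogn was at 0.0056 and the related median 0.0086. In the authors' deposited table Acan was at -0.043 and the related median -0.0035. With the mean over all kept probes Vcan was at -0.098. The cause of these turns was not tested. On array 1 alone 28 members were above 0, against 49.9% of all genes, and on array 2 alone 21, against 50.8%. Members below 0 numbered 7 to 14. With one array alone the member median was 0.027 to 0.11, and the related median 0.026 to 0.034. These values have no test. The reported test is itself paired, since each ratio sets a mutant against the control on its own array.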
